A study of Mus musculus with 2 samples.

Results

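The 8 myosin heavy chain genes described here are those outside the 6 main chains of limb muscle: the cardiac chain Myh6, its relative Myh7b, the superfast chain Myh13, the slow-tonic chain Myh15, the nonmuscle chains Myh9, Myh10 and Myh14, and the smooth muscle chain Myh11. They were chosen by gene symbol, with earlier results of these data known, and form 8 of 55536 annotated genes, with 47 of 141862 transcripts. Their levels were measured by total RNA-seq in the gastrocnemius, a calf muscle, of 2 male mice aged 4 days. Both animals were B6CASTF1/J, the hybrid offspring of C57BL/6J and CAST mice, and they form 1 untreated group of 2 biological replicates with 300 ng of RNA and ERCC spike-in controls in each library. No mutant, treated or other-age group is compared. The reference chains below are the limb muscle chains Myh1, Myh2, Myh3, Myh4, Myh7 and Myh8 of the same 2 libraries.

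Myosin II is a motor of 2 heavy chains, each with a head that splits ATP and pulls on actin and a tail that bundles with other tails into filaments. Sarcomeric chains such as those of Myh6 and Myh13 work in striated muscle, Myh11 works in the smooth muscle of vessel walls, and Myh9, Myh10 and Myh14 give nearly every other cell its contractile cortex, adhesion tension and cleavage furrow. Smooth and nonmuscle chains are further varied by small alternative exons in surface loops of the head or at the tail end, and the sarcomeric genes Myh6, Myh7 and Myh7b carry in their introns a family of muscle microRNAs, short RNAs that repress target messages.

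The alternative exons are shown first because they separate known protein forms within a gene. Each is read 5′ to 3′ on the gene's strand from the GENCODE M21 transcripts (mm10). The capitals mark the exon, and the lower-case letters are the 15 coding bases on either side. For the tail exon of Myh11 the capitals run through its stop codon, TGA, and no later base is shown.
Myh11 21-nt exon, chr16:14248580-14248600, minus strand, loop 1 of the head: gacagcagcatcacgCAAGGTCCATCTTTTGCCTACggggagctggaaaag
Myh10 30-nt exon, chr11:68745935-68745964, plus strand, loop 1: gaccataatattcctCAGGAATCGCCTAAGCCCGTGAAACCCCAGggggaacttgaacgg
Myh14 24-nt exon, chr7:44657417-44657440, minus strand, loop 1: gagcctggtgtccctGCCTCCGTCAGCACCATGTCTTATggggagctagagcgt
Myh10 63-nt exon, chr11:68775365-68775427, plus strand, loop 2: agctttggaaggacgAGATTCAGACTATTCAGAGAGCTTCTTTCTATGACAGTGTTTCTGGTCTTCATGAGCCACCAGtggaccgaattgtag
Myh14 123-nt exon, chr7:44635454-44635576, minus strand, loop 2: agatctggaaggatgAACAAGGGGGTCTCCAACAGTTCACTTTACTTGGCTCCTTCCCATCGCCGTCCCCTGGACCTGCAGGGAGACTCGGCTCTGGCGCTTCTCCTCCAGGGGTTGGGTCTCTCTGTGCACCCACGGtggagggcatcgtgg
Myh11 39-nt exon, chr16:14198050-14198088, minus strand, tail end: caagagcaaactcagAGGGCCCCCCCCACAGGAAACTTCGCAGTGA
The exons of 21, 30 and 24 nt all joined the message at the same column of an alignment of the coding sequences, column 712. The 15 bases after that join matched those of Myh11 at 11 positions in Myh10 and at 10 in Myh14. The 15 bases before it matched at 7 and 6 positions, and the exons themselves read differently. The exons of 63 and 123 nt shared column 1958, with 10 of the 15 following and 12 of the 15 preceding bases alike. All 5 head exons are whole multiples of 3 and keep the reading frame.

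The microRNAs of the 3 host genes are shown because they share bases 2 to 7. Each mature sequence is from RefSeq (GRCm38.p6), with bases 2 to 8, the seed that pairs with targets, in capitals.
mmu-miR-208a-3p, in intron 29 of Myh6: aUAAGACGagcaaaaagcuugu
mmu-miR-208b-3p, in intron 31 of Myh7: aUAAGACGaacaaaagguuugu
mmu-miR-499-5p, in intron 19 of Myh7b: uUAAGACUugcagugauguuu
The miR-208a and miR-208b seeds were identical, and miR-499 shared bases 2 to 7 with both. Their hairpin entries, of 83, 77 and 79 nt, had 0 counts in both libraries. The quantifier gave these entries an effective length of 0, so it could assign them no count at all, and the 0 says nothing of the microRNAs' abundance.

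The libraries held 35281187 counts in annotated genes in replicate 1 and 32301531 in replicate 2, and they differed well beyond counting noise (chi-square of 22.3 per degree of freedom over 17998 genes). Skeletal fibre markers (Acta1, Ckm, Mylpf, Tnnt3 and Actn3) summed to 35694 and 33084 TPM, a transcript level corrected for length and sequencing depth. All 7 epidermis markers were over 1.5-fold apart, with sums of 10.7 TPM in replicate 1 and 982 TPM in replicate 2, and the 5 Schwann cell markers summed to 324 and 732 TPM. The part of this difference in the values below was not tested, and each value is given for both libraries. With 2 libraries of 1 group an exact two-sided sign-flip test cannot go below p = 0.5, so no test is given: values are means ± SD of 2 libraries, and a gap between genes is called larger than the spread where the mean within-library log2 ratio was over 2 SD from 0.

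The 8 chains together reached 175.4 TPM in replicate 1 and 191.4 TPM in replicate 2, against 6469 and 5821 TPM for the 6 limb chains. That is 2.64% and 3.18% of all 14 heavy chains (2.91% ± 0.383, SD, n = 2), and 1.63% and 1.93% with transcripts of 4000 nt or more alone. Of the 8, 7 were at 1 TPM or more in both libraries, and so were 55.2% of all protein-coding genes. Myh15 was the exception. Nonmuscle chains made up 61.9% and 58.8% of the summed TPM of the 8 (60.3% ± 2.19, SD, n = 2). Myh9 alone held 39.7% and 37.8%, Myh6 27.5% and 31.5%, and Myh10 16.2% and 14.8%.

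Myh9, the nonmuscle IIA heavy chain of migrating and adherent cells (chr15:77760587-77842175, minus strand), was the most abundant of the 8 at 69.7 and 72.4 TPM (71.0 ± 1.88, SD, n = 2), from 11917 and 11769 counts. Myh10, the IIB chain known from neurons and dividing cells (chr11:68691559-68816632, plus strand), stood at 28.4 and 28.3 TPM, from 4983 and 4766 counts. The level of Myh9 was 2.50-fold that of Myh10, a log2 ratio of 1.32 ± 0.04 in TPM, and the libraries gave 1.29 and 1.35. Myh14, the IIC chain known from epithelia (chr7:44605803-44670843, minus strand), was the lowest nonmuscle chain at 10.5 and 11.9 TPM (11.2 ± 0.962, SD, n = 2), 6.32-fold below Myh9. All 3 gaps among the nonmuscle chains were larger than the spread, in TPM from either quantification.

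Myh11, the smooth muscle chain (chr16:14194535-14291372, minus strand), reached 12.4 and 12.0 TPM (12.2 ± 0.297, SD, n = 2) from 2206 and 1986 counts. Its level was thus close to that of Myh14: the log2 ratio in TPM, 0.24 in replicate 1 and 0.02 in replicate 2, was within the spread. Myh9 was 5.79-fold and Myh10 2.32-fold higher than Myh11 in TPM. In bulk muscle, fewer cells of a type and less RNA per cell cannot be told apart.

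Myh6, the alpha chain of heart muscle (chr14:54941921-54966927, minus strand), was listed at 48.2 and 60.4 TPM (54.3 ± 8.61, SD, n = 2), second of the 8 in the alignment-based gene table. Its neighbour Myh7 (chr14:54970684-54994626, minus strand), the beta chain of heart and of slow limb fibres, was at 206 and 247 TPM. Myh6 was thus 4.18-fold below Myh7, a log2 ratio in TPM of -2.06 ± 0.05. The gap was 9.53-fold in TPM from reads and 15.4-fold with transcripts of 4000 nt or more. Both this fold and the rank of Myh6 turned on how the reads were shared among transcripts, as set out below for Myh6. Short fragments entered the Myh7 side as well. By alignment Myh7-206, of 595 nt, held 18.5% and 14.4% of the TPM of Myh7, and Myh7-207, of 360 nt, held 15.3% and 17.2%. Both had 0% from reads.

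Myh7b, a sarcomeric chain of slow and slow-tonic fibres (chr2:155611212-155634307, plus strand), had 4.53 and 4.02 TPM from 493 and 440 counts. That was 51.7-fold below Myh7 in TPM, and 37.3-fold below it in TPM from reads. Myh13, the superfast chain of eye and larynx muscles (chr11:67321658-67371586, plus strand), had 1.73 and 2.48 TPM from 293 and 378 counts. It was 2152-fold below the neonatal chain Myh8 of the same gene cluster, a log2 ratio in TPM of -11.07 ± 0.44. From reads the gap was 1464-fold. Myh15, a slow-tonic chain of eye muscles and spindles (chr16:49057486-49199104, plus strand), had 2 counts in replicate 1 and 4 in replicate 2, listed as 0.01 and 0.02 TPM. Both specialised eye muscle chains were thus at the bottom of the order in TPM, and of the pair Myh13 alone passed 1 TPM.

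**Figure D1:**
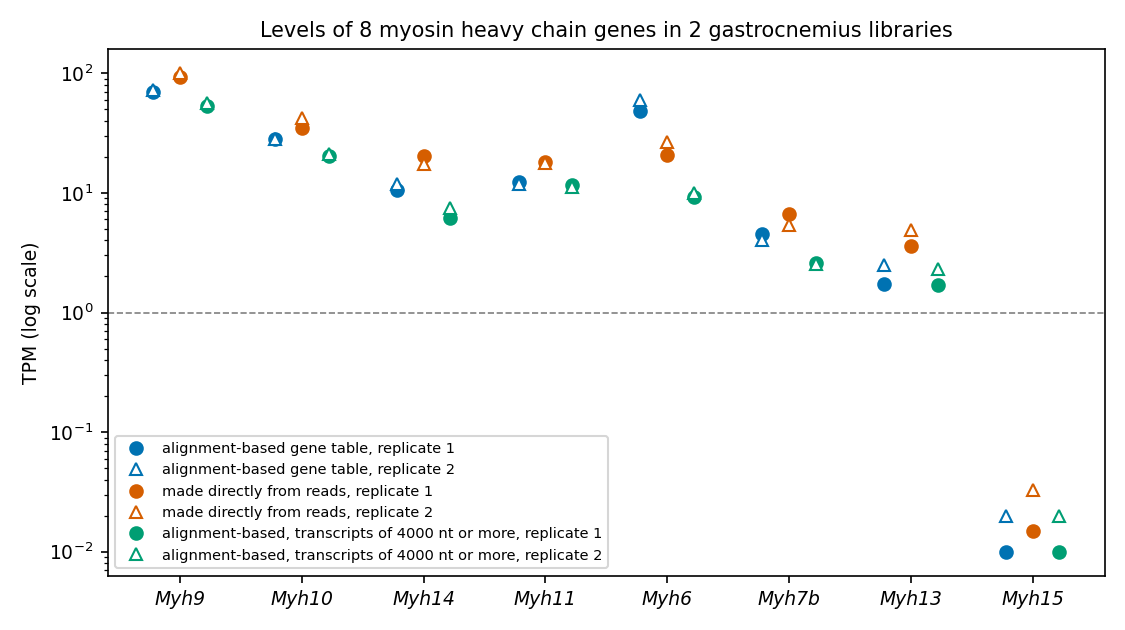
Levels of the 8 heavy chain genes in TPM on a log axis, for replicate 1 (filled circles) and replicate 2 (open triangles), by the alignment-based gene table, by the quantification made directly from reads, and by transcripts of 4000 nt or more in the alignment-based tables. The dashed line is 1 TPM: Myh15 lies below it by every measure, Myh9 is at the top, and Myh6 moves most between measures. TPM of the 2 quantifications stand on different bases.

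In the second quantification, made directly from reads, TPM stood on another base. Protein-coding genes outside the mitochondrial genome held 72.6% and 73.9% of all TPM there, against 41.9% and 41.6% by alignment. A TPM from reads therefore cannot be set directly against a TPM by alignment, while order and ratios within each do not depend on that base. From reads Myh9 led again with 93.5 and 100.2 TPM, from 12810 and 12698 estimated counts. Myh10 followed with 34.7 and 41.9 TPM, and Myh6 with 20.8 and 26.7 TPM. Myh14 had 20.2 and 17.6 TPM and Myh11 had 18.2 and 17.7 TPM. By this measure the steps from Myh6 to Myh14, from Myh14 to Myh11 and from Myh7b to Myh13 were within the spread. The order of Myh6 and Myh10 was turned round: Myh6 over Myh10 was 0.93 ± 0.23 (log2, TPM) in the alignment-based table and -0.69 ± 0.07 from reads.

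The difference for Myh6 lay in a short transcript. Myh6-207, an annotated fragment of 542 nt with 4 exons at the 3′ end of the gene, was given 80.4% and 83.0% of the TPM of Myh6 in the alignment-based tables, from 502 and 605 counts. From reads the same transcript had 0.434 and 2.47 TPM. Full-length Myh6-205, of 6008 nt, led instead with 10.7 and 13.5 TPM, and held 17.1% and 11.7% of the gene in the alignment-based tables. The other long form, Myh6-201, held 1.99% and 4.88% by alignment and 14.4% and 8.72% from reads. A retained-intron fragment of 718 nt, Myh6-206, took 6.30 and 7.22 TPM from reads but 0.12 and 0 TPM by alignment. Each quantification thus gave much of the Myh6 level to a short fragment, and not to the same one.

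The Myh6-207 fragment shares sequence with Myh7. Of its 443 stretches of 100 nt, the read length implied by the tables, 139 (31.4%) also stood in a Myh7 transcript, against 687 of 5909 (11.6%) in Myh6-205. The longest run of identical bases was 173 nt, joined across an intron in both genes (chr14:54942353-54943185 in Myh6 and chr14:54971377-54971662 in Myh7, both minus strand, mm10). It is printed in capitals throughout because reads from within it could belong to either gene.
Myh6-207 and Myh7-201 shared run: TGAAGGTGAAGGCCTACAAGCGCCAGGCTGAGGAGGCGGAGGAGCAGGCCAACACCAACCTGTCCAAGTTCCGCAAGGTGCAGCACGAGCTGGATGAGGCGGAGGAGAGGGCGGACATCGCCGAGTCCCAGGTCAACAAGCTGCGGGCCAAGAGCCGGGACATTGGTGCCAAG
Over their whole coding sequences Myh6 and Myh7 were 91.7% identical. The level of Myh6 is therefore uncertain, and the part of Myh7 reads in it was not tested. With transcripts of 4000 nt or more alone, a restriction chosen after seeing these values, Myh6 had 9.22 and 10.03 TPM and stood below Myh10, at a log2 ratio of -1.11 ± 0.04, and within the spread of Myh11.

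In the alignment-based tables short fragments weighed less on the other chains than on Myh6. Transcripts of 4000 nt or more, called full-length here, held 91.4% to 100% of the alignment-based counts of the 7 other genes in both libraries, against 75.9% and 72.8% for Myh6. In TPM, where a read on a short transcript counts for more, they held 19.1% and 16.6% of Myh6, 58.8% and 63.5% of Myh14, 57.3% and 62.7% of Myh7b and 76.0% and 77.9% of Myh9. From reads the order was not the same: they held 66.1% and 59.1% of the TPM of Myh6, 46.8% and 66.2% of Myh14 and 63.7% and 77.5% of Myh7b. With these transcripts alone the nonmuscle share of the 8 was 76.1% in replicate 1 and 76.6% in replicate 2.

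**Figure D2:**
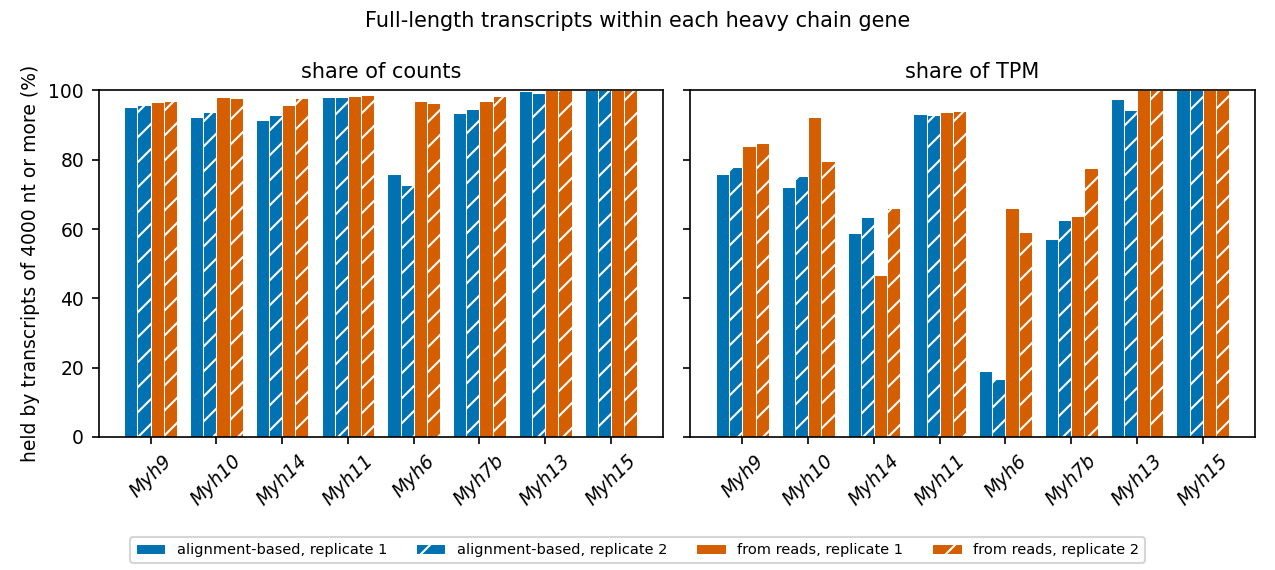
Percent of each heavy chain gene held by transcripts of 4000 nt or more, in counts (left) and in TPM (right), for both quantifications (colour) and both replicates (hatching marks replicate 2). Full-length transcripts hold 72.8% or more of the counts of every gene by either quantification, while their part of the alignment-based TPM of Myh6 is 19.1% and 16.6%.

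Among nonmuscle chains the leading transcripts were full-length by alignment. Myh9-201, its 1 full-length transcript, held 76.0% and 77.9% of the TPM of Myh9, and a processed fragment of 720 nt, Myh9-203, held 15.7% and 13.5%. For Myh10 the quantifications chose different full-length forms. Myh10-203 held 66.7% and 75.2% of the gene's TPM by alignment, where Myh10-202 held 5.33% and 0%. From reads Myh10-202 had 54.1% and 51.4%, and Myh10-203 had 36.7% and 25.7%. A processed fragment of 1811 nt, Myh10-206, held 17.5% and 14.5% by alignment and 0% from reads, where the fragment Myh10-205 had 0% and 14.7%. These forms differ in the first exon, which for Myh10-202 is chr11:68692316-68692559, of 244 nt with 80 coding nt, so which start was in use cannot be told from these tables.

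The loop 1 exon of Myh11, which marks the faster visceral form SM-B, was in 1 of its 3 full-length transcripts, Myh11-204. That transcript held 23.6% and 19.2% of the full-length TPM of Myh11 by alignment (505 and 370 counts) and 26.8% and 27.9% from reads. The tail exon, which marks the form SM2, was in Myh11-202, with 4.77% and 4.04% by alignment and 8.93% and 7.05% from reads. The larger part of Myh11, with neither exon, lay in Myh11-201, at 66.7% and 71.4% of the gene's TPM. Both quantifications and both animals thus gave the order of forms as neither exon, loop 1 exon, tail exon.

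The neuronal exons of Myh10 were both in Myh10-201. It was listed at 0 counts by alignment in both libraries, and had 1.72% and 3.43% of the full-length TPM of Myh10 from reads, with 90.02 and 171 estimated counts. For Myh14 the loop 1 exon, in Myh14-201, held 10.4% in replicate 1 and 27.5% in replicate 2 by alignment, from 119 and 358 counts. From reads its share was 8.54% and 18.8%, so it was higher in replicate 2 by both quantifications. The loop 2 exon of Myh14 held 3.73% and 0% by alignment and 3.75% and 2.75% from reads. These shares rest on reads in the parts where the transcripts differ, and the estimation spreads all other reads by them. Those parts are not the named exons alone. Myh14-201 has 6457 nt in 42 exons and Myh14-202 has 6390 nt in 40. Myh11-204, with its added exon, has 6450 nt, against 6549 nt for Myh11-201. Each share is thus that of a whole transcript, not a measure of the exon by itself.

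**Figure D3:**
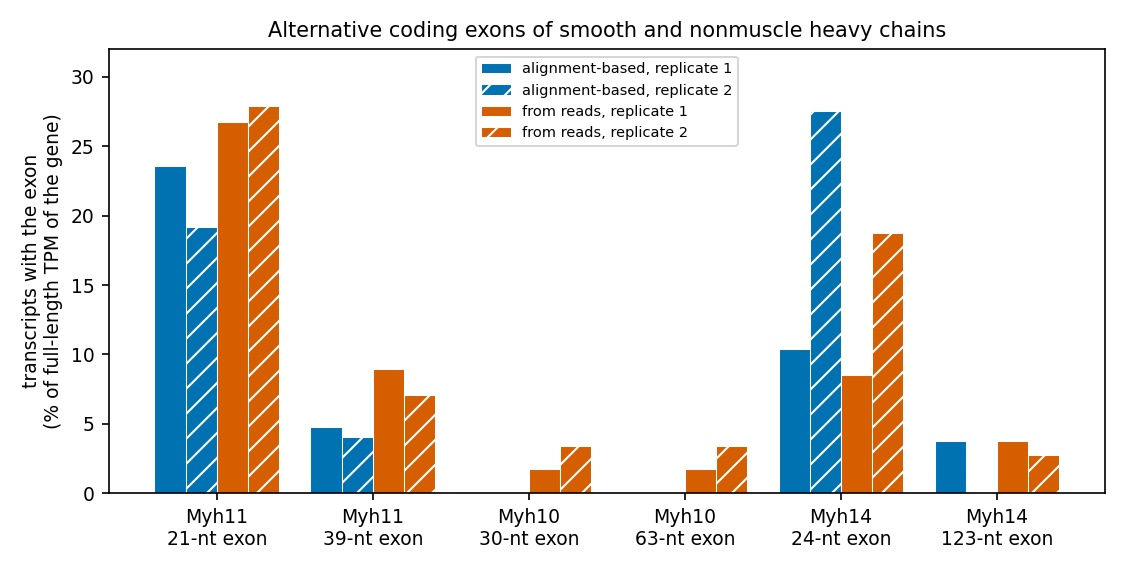
Percent of the full-length TPM of each gene in transcripts that contain the named exon, for both quantifications (colour) and both replicates (hatching marks replicate 2). The loop 1 exon of Myh11 lies between 19.2% and 27.9% in all 4 measurements, the Myh10 exons are at 0 by alignment, and the Myh14 loop 1 exon is higher in replicate 2.

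The remaining transcripts were less settled. Myh14-202, with neither head exon, held 50.6% and 46.0% of the TPM of Myh14 by alignment and 41.1% and 51.9% from reads. A fragment of 471 nt, Myh14-207, held 21.03% and 19.02% by alignment and 41.2% and 29.3% from reads, level with Myh14-202 in replicate 1. Another fragment, Myh14-205, held 20.1% and 17.6% by alignment and 5.14% and 4.47% from reads. Fragments thus took a large and unsteady part of the Myh14 level.

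Myh7b-201 held 57.3% and 62.7% of Myh7b by alignment and 63.7% and 77.5% from reads. A retained-intron fragment, Myh7b-203, held 29.8% and 37.3% by alignment, from 22.7 and 23.5 counts, and 23.3% and 16.5% from reads. The fragment Myh7b-202 held 12.9% and 0% by alignment and 13.1% and 5.96% from reads. For Myh13 the quantifications differed again. By alignment Myh13-203 held 88.1% in replicate 1 and 6.81% in replicate 2, Myh13-202 held 9.75% and 69.1%, and Myh13-201 held 0% and 18.3%. From reads Myh13-202 led in both libraries with 70.3% and 99.996%, so the change of leading form between the animals was seen by alignment alone. These 3 forms have the same coding part and differ outside it. Myh15 has 1 annotated transcript.

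Sequence shared with other chains was low outside Myh6. In Myh13, 206 of 5963 stretches of 100 nt (3.45%) also stood in another heavy chain, 122 of them in Myh8, with which Myh13 was 79.8% identical over the coding part. Myh8 held 855588 and 733057 counts beside the 293 and 378 of Myh13, and the part of Myh8 reads in the Myh13 counts was not tested. Myh9 and Myh10 shared 23 stretches, 0.314% of those of Myh9-201. Myh7b-201, Myh15-201, Myh11-201 and Myh14-202 shared none.

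By coding sequence Myh11 stood with the nonmuscle chains. Myh9 was 74.9% identical to Myh11, the smooth muscle chain, and 74.0% to Myh10 over aligned coding bases. Myh14 was less alike, at 68.1% to Myh9. Myh6 and Myh7b were 71.3% identical, and Myh6 and Myh15 63.5%, while Myh15 matched the smooth and nonmuscle chains at 46.8% to 48.9%. Genes on the opposite strand overlapped Myh6 (Gm49130, 2 and 0 counts), Myh7b (Trpc4ap, over 37 nt, 3696 and 3223 counts) and Myh14 (2310016G11Rik, 6 and 8 counts, and Gm18256, 0 counts). No source says that strand was used in counting, so reads in those overlaps could belong to either gene. On the same strand, besides the microRNA hairpins, Gm26476 lay within Myh13 and Gm22107 within Myh9, each with 0 counts in both libraries. Gm22107, of 100 nt, had an effective length of 1.

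Genes that work with the smooth and nonmuscle chains were read throughout. All 10 smooth muscle contractile genes were at 1 TPM or more in both libraries, with a median of 32.2 ± 0.919 TPM (SD, n = 2), where 55.2% of protein-coding genes passed that level. Acta2, smooth muscle actin, was highest at 175 and 185 TPM. Smtn, an actin-binding protein of smooth muscle, had 128 and 117 TPM, Cald1, the actin regulator caldesmon, had 51.9 and 50.9 TPM, and Mylk, the kinase that activates smooth muscle myosin, had 21.02 and 21.57 TPM. The lowest were Cnn1, calponin, at 3.05 and 4.02 TPM, Myocd, the transcriptional coactivator of smooth muscle genes, at 1.53 and 1.88 TPM, and Lmod1, an actin nucleator, at 1.66 and 1.13 TPM. Several of these genes, Acta2 and Synpo2 among them, are also expressed in young striated muscle.

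All 14 nonmuscle light chains and regulators were at 1 TPM or more in both libraries, beside 55.2% of protein-coding genes. Their median was 43.6 ± 1.72 TPM (SD, n = 2). The regulatory light chain Myl12a had 308 and 297 TPM, and its close copy Myl12b had 81.6 and 85.9 TPM. The essential light chain Myl6 had 198 and 244 TPM, and Myl9, the regulatory light chain shared with smooth muscle, had 101 and 119 TPM. The switch for contraction Rhoa had 111 and 122 TPM, and its kinase Rock2 had 51.1 and 52.6 TPM. Ppp1cb and Ppp1r12a, the catalytic and targeting parts of myosin phosphatase, had 142 and 131 TPM and 33.8 and 37.1 TPM.

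The cardiac list stood apart from Myh6. Of 11 cardiac genes, 1 was at 1 TPM or more in both libraries, beside 55.2% of protein-coding genes. It was Myl3, at 131 and 153 TPM, a light chain that slow limb fibres also use. Below it, the calcium release channel Ryr2 had 106 and 118 counts (0.36 and 0.57 TPM), Mybpc3 had 11 and 26 counts, Hcn4 13 and 18, and Tbx5 6 and 4. The natriuretic peptide gene Nppa and the heart transcription factor gene Nkx2-5 had 0 counts in both libraries. Nppb had 1 count in each, the atrial light chain Myl7 had 1 and 0, Gata4 had 1 and 2, and cardiac troponin I, Tnni3, had 19 and 6. These last 6, the heart muscle markers, were thus between 0 and 19 counts beside the 2102 and 2230 counts of Myh6.

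**Figure D4:**
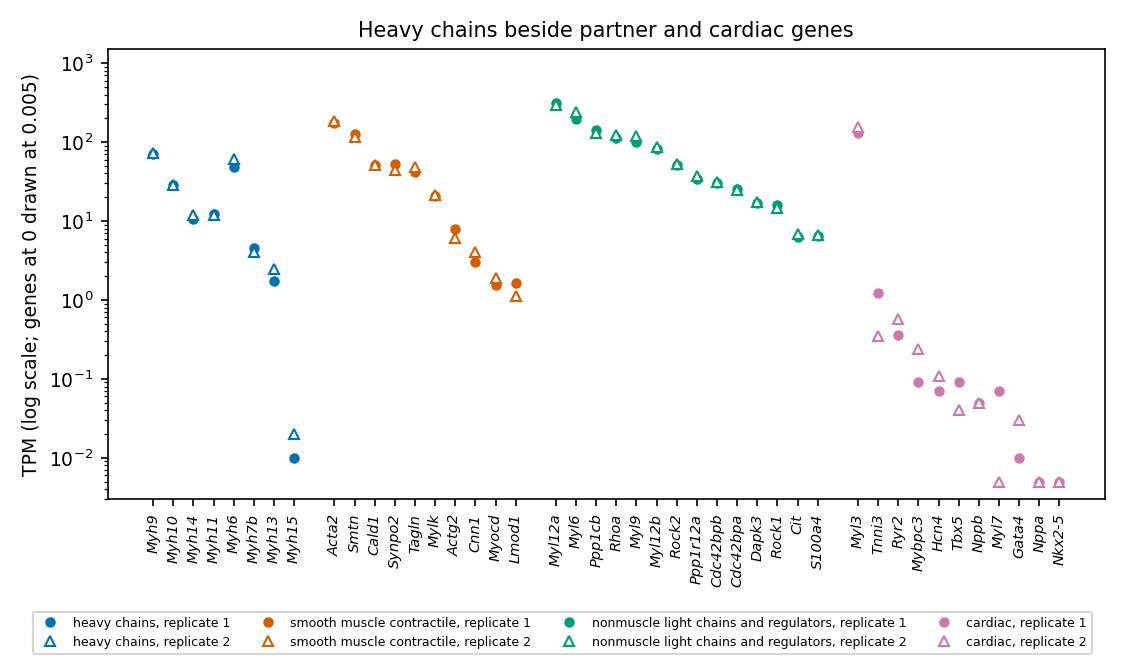
Alignment-based TPM (log axis) of the 8 heavy chains, 10 smooth muscle contractile genes, 14 nonmuscle light chains and regulators and 11 cardiac genes, with replicate 1 as filled circles, replicate 2 as open triangles and genes at 0 drawn at 0.005. Every smooth muscle and nonmuscle partner lies above 1 TPM in both libraries, and 10 of the 11 cardiac genes lie below it in at least 1 library.

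Between the animals, most of the chains lay close together. Of the 7 chains that averaged at least 100 counts, 0 were past 1.5-fold in scaled counts and 0 past 2-fold. Among all 12421 genes at that count, 3.98% were past 1.5-fold and 1.67% past 2-fold, so with 7 chains a count of 0 is near the share of all genes. The median absolute log2 ratio of the 7 was 0.08, against 0.13 for all of these genes. Replicate 1 over replicate 2 was -0.07 for Myh9 on the log2 scale, with a 95% counting interval of -0.10 to -0.03, -0.02 for Myh10 (-0.08 to 0.04), 0.07 for Myh11 (-0.02 to 0.16) and 0.08 for Myh7b (-0.11 to 0.27). The interval covers counting error only.

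The larger differences were all towards replicate 2. Myh13 was 1.37-fold higher in replicate 2, a log2 ratio of -0.45 (-0.68 to -0.23). Myh14 was 1.18-fold higher there, at -0.24 (-0.36 to -0.13), in the library with 982 TPM of epidermis markers against 10.7 TPM in replicate 1, and the part of those cells in it was not tested. Myh6 stood at -0.17 (-0.26 to -0.08) and Myh7 at -0.28 (-0.31 to -0.26). Myh15 averaged under 100 counts, and its ratio was -0.92 with an interval of -4.55 to 1.72, so no difference was detectable at this depth. Counting intervals excluded 0 for 4 of the 7 chains that averaged at least 100 counts, Myh6, Myh9, Myh13 and Myh14, and for 42.8% of all genes at that count.

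Among the partner genes, 0 of the 10 smooth muscle genes and 0 of the 13 nonmuscle partners that averaged at least 100 counts were past 1.5-fold, beside the 3.98% of all genes. The smooth muscle median was 0.02 (log2). The nonmuscle median over all 14 genes was -0.04. Lmod1 came nearest to the threshold at a log2 ratio of 0.57 (0.23 to 0.91), from 187 and 119 counts.

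**Figure D5:**
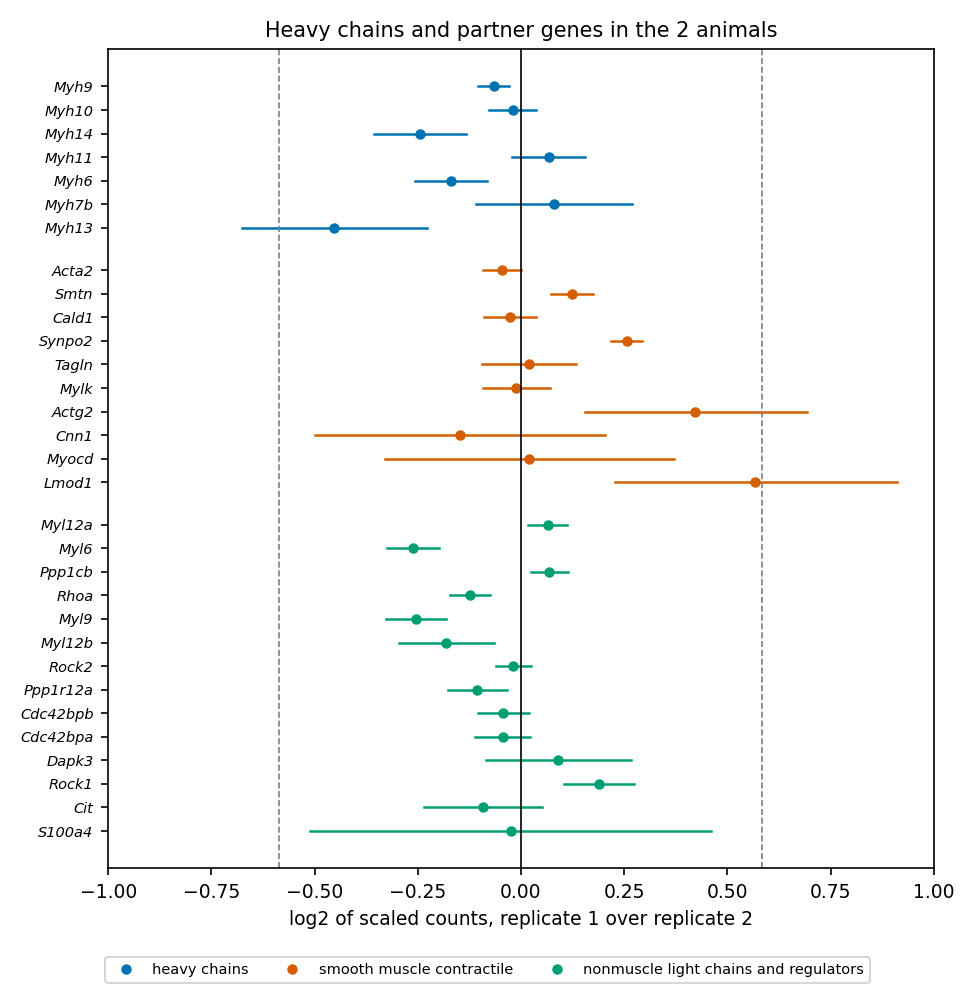
Log2 ratio of scaled counts, replicate 1 over replicate 2, for 7 heavy chains, 10 smooth muscle contractile genes and 14 nonmuscle light chains and regulators, with 95% counting intervals as bars. The dashed lines mark 1.5-fold either way, and no point lies beyond them. Myh15, with 2 and 4 counts, is not drawn.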

How the data were processed

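Total RNA-seq libraries of 2 animals were analysed as 1 group. Build mm10 and annotation GENCODE M21 come from the submitters' notes. Aligner, quantifiers and versions: not given in the sources used here. For genes and transcripts the authors deposited expected counts, TPM and transcript percent of the gene, with RSEM's column names (per the file headers). A second deposited transcript table, made directly from reads, has estimated counts and TPM with kallisto's column names (per the file headers). It was summed per gene. Entries that name no gene held 4 and 6 counts and were left out, as were spike-ins.

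The members and lists were chosen with earlier results of these data known. All 8 members are named, with every transcript at 10% or more of its gene by either quantification, overlapping genes and 3 partner lists. Log2 ratios between genes used TPM plus 0.1. For ratios between libraries, expected counts were scaled by TMM (edgeR 4.0.16 in R 4.3.3), adding 0.5 to each count. Whole-number rounding was used for edgeR, DESeq2 1.42.0 and the intervals, which are exact (Clopper-Pearson, 95%) and cover counting error only. Coding sequences were aligned with MAFFT 7.526. The ratio script was tested on simulated counts. Alternatives were another quantification, long transcripts, other scalings, thresholds and pseudocounts, and leaving out a library. The labels list 2 donors.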

Additional observations from a re-analysis of the deposited data

How the results depend on the processing

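The nonmuscle share of the 8 chains, 60.3% of TPM, was 74.8% from reads, 76.3% with transcripts of 4000 nt or more (an alternative chosen after seeing the data) and 78.1% in counts. The 8 chains as a share of 14, 2.91%, were 2.37%, 1.78% and 2.22% in that order. Myh6 over Myh7, -2.06 on the log2 scale, was -3.25, -3.95 and -3.61. Myh9 over Myh10, 1.32, was 1.38 with transcripts of 4000 nt or more. Without a filter beyond 1 count in either library, 1 chain in place of 0 was past 1.5-fold, Myh15 with 2 and 4 counts. Restricting to long transcripts drops the short fragments of Myh6, of Myh7 and of other chains by construction. It took Myh7 from 206 and 247 TPM to 135 and 167 TPM. For the other moves the cause was not tested. None of these results changed sign under the alternatives run.

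With either replicate left out, the nonmuscle share was 58.8% to 61.9%, the share of 14 was 2.64% to 3.18%, Myh9 over Myh10 was 1.29 to 1.35, Myh6 over Myh7 was -2.10 to -2.03, and 7 chains stayed at 1 TPM or more. The count at 1 TPM was 5 with a threshold of 5 TPM. Leaving out a library gives no ratio between libraries. Library totals, DESeq2 size factors, ERCC totals and counts from reads left 0 chains past 1.5-fold. They moved the median log2 ratio of all genes by at most 0.08, and the signs of Myh10 (DESeq2 size factors, 0.01) and Myh11 (ERCC totals, -0.01) turned within their counting intervals. Myh9 went to -0.109 with library totals and -0.145 with ERCC totals, and Myh10 to -0.098 with ERCC totals. These 3 values lay outside the counting intervals given under the main scaling, which do not cover the choice of scaling. No paired analysis was possible because the study has 1 group. Depth limits Myh15 alone among the 8 levels.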
